A study of Mus musculus with 16 samples.

Results

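Skin wounds of untreated db/db mice were compared with skin wounds of untreated wild-type (WT) mice on the arrays titled day 7, that is 2 arrays of the db/db group and 2 of the WT group, 4 of the 16 arrays of the series. Female db/db mice of the C57BLKS/J Iar-+Lepr db/+Lepr db line, 10 weeks old, lack a working leptin receptor and are obese and diabetic. The WT mice were females of another line, C57BL/6J, 10 to 12 weeks old, so strain and diabetes genotype cannot be told apart in any value below. The back was shaved, full-thickness wounds reaching the panniculus carnosus muscle were punched, and RNA came from homogenates of the wound together with the intact skin around it. A difference in such bulk RNA can come from fewer cells of a type or from less RNA per cell, and these cannot be told apart. Nothing in the labels says that the replicates came from separate mice. The p-values therefore measure only the spread between arrays of the same group, which may be technical. This spread was pooled over all 16 arrays of the series.

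The days are those of the array titles. Of 20 fold changes printed for day 14 in these groups, 20 lay within 6% of the values of the arrays labelled day 7, and of 20 printed for day 7, 1 did and 20 lay within 6% of the arrays labelled day 14. The cause of this was not tested.

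In a healing wound, neutrophils arrive early, drawn by CXC chemokines and released from the marrow under granulocyte colony-stimulating factor, and macrophages follow, clear them and take on a repair state. Keratinocytes then close the surface, fibroblasts lay down collagen, and hair follicles at the edge add cells to the new epidermis. Wounds of db/db mice close slowly and are known for inflammation that persists.

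Each array carried 44397 spots, of which 43020 were not controls and 0 were saturated. The 75th percentile of the signal was 1204 and 1404 on WT replicates 1 and 2 and 2318 and 1824 on db/db replicates 1 and 2, and between 73.5% and 76.2% of the probes were well above background. Values below are log2 signals after subtraction of the log2 75th percentile of the array, called scaled log2 signals, and a log2 difference is the db/db mean minus the WT mean. A probe was tested where both arrays of at least 1 group were well above background, which held for 29746 of 39429 probes, and it was called where the Benjamini-Hochberg adjusted p of limma was under 0.05 and the fold change over 2. Every adjusted p below comes from limma, with n = 2 arrays a group unless an array is left out. Effects are log2 differences, many of them given with their standard error (SE). The number of arrays limits the precision: an exact permutation test of 2 against 2 cannot give a p under 0.333, and replicates differed more than 2-fold for 10.02% of the probes tested in the db/db group and for 7.57% in the WT group.

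Calls made up 9.07% of the probes tested, and db/db wounds were higher for 4.19% and lower for 4.88%. Under the thresholds of the study's methods, which ask for a 2-fold change and a p of 0.05 without adjustment, these shares were 14.1%, 5.67% and 8.42%. Read through 1 probe a gene, 781 of 16918 genes were called higher (4.62%) and 771 lower (4.56%), and these are the shares against which each count of list members below is set. The shares moved when an array was left out, and counts from such fits are to be read against 3.59% higher and 2.38% lower without db/db replicate 1, 2.95% and 2.72% without db/db replicate 2, 5.0% and 3.01% without WT replicate 1, and 2.36% and 2.77% without WT replicate 2. Which direction held more calls depended on the scaling: with quantile normalization 1736 probes were called higher and 1282 lower, against 1246 and 1453 here. The median log2 difference over all genes was −0.02. Most of these calls needed the spread of all 8 groups: with the 4 arrays alone limma called 10 probes. Of the calls, 440 of the higher (35.3%) and 406 of the lower (27.9%) stood whichever of the 4 arrays was left out.

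**Figure D1:**
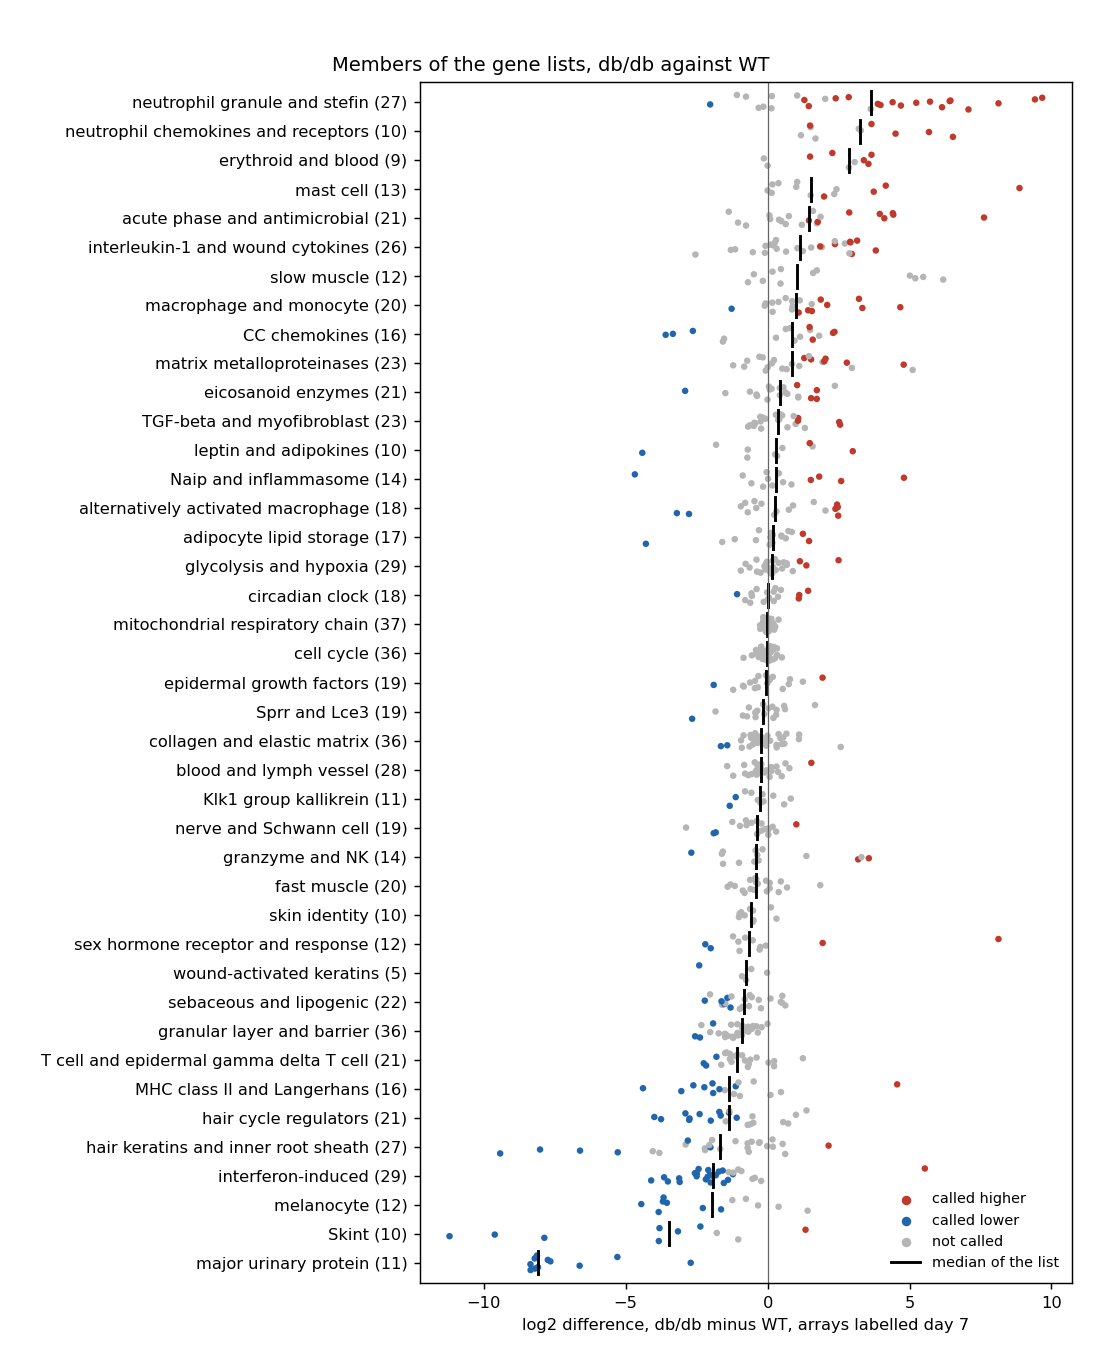
Log2 difference between db/db and WT wounds on the arrays labelled day 7 for each tested member of 41 gene lists, with the number of tested members in parentheses. Red and blue points were called higher and lower, grey points were not called, and black bars mark list medians, which run from −8.09 for the major urinary proteins to 3.63 for the neutrophil list.

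The 10 skin genes listed to check the labelled tissue were well above background on all 4 arrays, and none was called by limma, while 1 was lower at the unadjusted thresholds. Krt5 and Krt14, the keratins of the basal epidermis, differed by −0.62 ± 0.30 and −0.51 ± 0.41 (log2 difference ± SE), and Col1a1, a chain of type I collagen, by −0.52 ± 0.30. Of 4 genes of the Y chromosome, listed because the mice are given as female, Ddx3y was well above background on WT replicate 2 alone (−4.02, against −9.65 and −9.35 in db/db wounds and −8.70 on WT replicate 1), and the other 3 were well above background on none of the 4 arrays. The leptin receptor gene itself, Lepr, was read by 3 probes. The brightest had scaled log2 signals of 1.36 and 1.71 in db/db and 2.37 and 2.11 in WT wounds and was not called (−0.70 ± 0.41, adjusted p = 0.29), while the others were called lower (−1.09 and −2.76). Where these probes lie relative to the db mutation is not given in the sources used here, so they do not check the genotype.

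With all 4 arrays, genes of the neutrophil granule had the highest median of the 42 gene lists. The median of the neutrophil chemokine list was higher without WT replicate 1 (4.13 against 4.05), and that of the red cell and platelet list without WT replicate 2 (2.51 against 2.24). Of 27 tested members of the granule list, 17 were called higher and 1 lower, and the median log2 difference was 3.63. Without db/db replicate 1, db/db replicate 2, WT replicate 1 and WT replicate 2 in turn, 13, 14, 17 and 14 were called higher, and the median without WT replicate 2 was 2.24. Other list members, here and below, are named as examples chosen after their values were seen, beside the key genes and the genes of largest change that were named by rule.

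Ltf, the iron-binding lactoferrin of the secondary granules, had scaled log2 signals of 3.25 and 1.76 in the db/db wounds and −6.19 and −5.06 in the WT wounds (8.13 ± 0.75, adjusted p = 0.00033). Camp, the antimicrobial cathelicidin, read 4.11 and 2.66 against −3.81 and −3.57 (7.08 ± 0.81, adjusted p = 0.00096). Mpo, the myeloperoxidase of the primary granules, read 2.98 and 0.57 against −4.38 and −3.51 (5.72 ± 0.85, adjusted p = 0.0035). For all 3 genes every db/db array lay above both WT arrays, and db/db replicate 1 was the higher of its pair.

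Mmp8, the neutrophil collagenase, was 5.24 ± 0.62 higher (adjusted p = 0.0012), and Lcn2, which withholds iron from bacteria, was 3.88 ± 0.45 higher (adjusted p = 0.0010). Retnlg, a resistin-like gene of neutrophils, read 4.63 and 4.15 in db/db wounds and −2.60 and −7.98 in WT wounds, where only replicate 1 was well above background (9.68 ± 1.55, adjusted p = 0.0049). Ctsg, the serine protease cathepsin G, was 6.14 ± 0.46 higher (adjusted p = 0.00012), whereas Elane, neutrophil elastase, was 1.45 ± 0.28 higher (adjusted p = 0.010) and fell to a difference of 0.90, under 2-fold, without db/db replicate 1.

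The abundant cytosolic genes of the same cells were not called. S100a8 and S100a9, the subunits of calprotectin, differed by 0.75 ± 0.45 (adjusted p = 0.30) and 0.06 ± 0.52 (adjusted p = 0.95), and the stefins Stfa1, Stfa2 and Stfa3, inhibitors of cathepsins, by −0.76, 0.15 and −1.08 with none called. Stefins gave the brightest probe of the list, Stfa1 on 3 of the 4 arrays and Stfa3 on WT replicate 2. The summed linear signal of the list, in units of the 75th percentile, was 411 and 419 in db/db and 440 and 458 in WT wounds. Keratinocytes also express calprotectin and stefins, and their part in these levels was not tested. Itgam, an integrin of myeloid cells, was the member called lower (−2.03 ± 0.49, adjusted p = 0.025), and it lost the call whichever array was left out.

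Of the 10 neutrophil chemokines and their receptors and growth factor, all had positive differences and 5 were called higher, with a median of 3.25. Among the 5 were Pf4 (1.49, adjusted p = 0.030) and Ppbp (3.66, with only 1 of the WT arrays well above background, adjusted p = 0.016, and 0.062 with normexp background correction), chemokines of platelets that are counted again with the blood genes below. Csf3, granulocyte colony-stimulating factor, read −0.91 and −0.86 in the db/db wounds and −6.10 and −8.73 in the WT wounds, the latter not well above background (6.53 ± 1.11, adjusted p = 0.0064). With normexp background correction the Csf3 difference was smaller, at 3.32 (adjusted p = 0.0044). Cxcl2 read 0.55 and 1.01 against −2.70 and −4.76 (4.51 ± 0.90, adjusted p = 0.013), and Cxcl3 read 1.18 and 0.56 against −3.13 and −6.51, with only 1 of the WT arrays well above background (5.69 ± 1.6, adjusted p = 0.044). The db/db arrays lay close together and above both WT arrays, which lay far apart. Cxcl1, which binds the same receptor, Cxcr2, read 1.47 and 1.5 against −0.26 and 0.88 and was not called (1.17 ± 0.60, adjusted p = 0.23), nor was Cxcr2 itself (1.52 ± 0.59, adjusted p = 0.12).

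Of the 5 chemokine calls 1 stood whichever array was left out, and of the 17 higher calls of the granule list 11 did. Without db/db replicate 1, db/db replicate 2, WT replicate 1 and WT replicate 2, 3, 2, 5 and 1 members were called, and the median without WT replicate 2 was 2.12. The call of Cxcl2 was lost without db/db replicate 2 (adjusted p = 0.062) and without WT replicate 2 (0.071), and that of Cxcl3 without db/db replicate 1 (0.16), db/db replicate 2 (0.11) or WT replicate 2 (0.22) and with a replicate block (0.075). Csf3 was called in each of those fits.

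The probes of 3 neighbouring chemokine genes gave 2 calls and 1 value short of a call. Their promoters are shown because, among the key genes of the list, they held the letters GGGNNTTTCC of a kappa B element. They are taken from RefSeq (GRCm38.p6) and run from 5′ to 3′ on the strand of the gene. The letters were searched on both strands and are printed in capitals.
Cxcl1 (chr5:90891126-90891213, plus strand): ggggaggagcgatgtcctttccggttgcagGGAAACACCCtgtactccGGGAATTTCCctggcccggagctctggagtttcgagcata
Cxcl2 (chr5:90903772-90903860, plus strand): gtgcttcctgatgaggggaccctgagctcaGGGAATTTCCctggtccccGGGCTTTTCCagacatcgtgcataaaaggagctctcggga
Cxcl3 (chr5:90785998-90786067, plus strand): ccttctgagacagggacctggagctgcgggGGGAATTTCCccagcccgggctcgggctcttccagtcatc
NF-kappa B, which binds such elements, is a main activator of inflammatory chemokine genes. Of 32851 promoters of 300 bases, 535 (1.63%) held the letters, and among the 10 list members 8 had a promoter in the table and 3, those shown, held them. The letters stood in the uncalled Cxcl1 as in the called Cxcl2 and Cxcl3, so they did not separate called from uncalled members, and a match is a description of sequence, not a site of binding.

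Of 26 tested members of the interleukin-1 and wound cytokine list, 7 were called higher and 0 lower, with a median of 1.14. Tnf, tumour necrosis factor, read 0.07 and 0.34 in the db/db wounds and −2.46 and −3.44 in the WT wounds (3.15 ± 0.46, adjusted p = 0.0034), and no db/db array overlapped with a WT array. Il1b read 3.46 and 3.95 against 0.69 and −0.90 (3.81 ± 1.01, adjusted p = 0.035), but the call did not stand without db/db replicate 1 (adjusted p = 0.097), db/db replicate 2 (0.13) or WT replicate 2 (0.17) or with a replicate block (0.058).

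Il10, which restrains macrophages, was 2.97 ± 0.20 higher (adjusted p = 6.5e-05), and Osm, a cytokine of neutrophils and macrophages, 2.90 ± 0.47 (adjusted p = 0.0053). With normexp background correction these differences were smaller, 1.31 (adjusted p = 0.0047) and 1.75 (adjusted p = 0.0039). Il6 and Ptgs2, the inducible cyclooxygenase, had differences of 2.72 ± 0.94 (adjusted p = 0.085) and 2.37 ± 0.76 (adjusted p = 0.068) that did not pass. The T cell cytokines Il17a and Il22 differed by −0.10 and −0.08, and Ifng, the type II interferon, by −2.55 ± 0.88 (adjusted p = 0.085). Without the 4 arrays in turn, in the order db/db 1, db/db 2, WT 1 and WT 2, which is kept below, 3, 6, 7 and 3 cytokine members were called higher.

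The acute phase and antimicrobial list had 8 of 21 members called higher and 0 lower, with a median of 1.45. Reg3g, a lectin that kills Gram-positive bacteria, read 3.46 and 4.99 in the db/db wounds and −1.36 and −5.43 in the WT wounds (7.62 ± 1.36, adjusted p = 0.0078). Saa3, a serum amyloid A made by macrophages and epithelium, read 7.81 and 8.26 against 4.99 and 2.26 (4.41 ± 0.94, adjusted p = 0.016), and its call was lost without db/db replicate 1 (0.053), db/db replicate 2 (0.073) or WT replicate 2 (0.080). WT replicate 2 was the lowest array for both genes. Pglyrp1, a peptidoglycan-binding protein of neutrophil granules, and Slpi, an inhibitor of elastase, were 4.11 ± 0.51 (adjusted p = 0.0015) and 2.87 ± 0.44 (adjusted p = 0.0039) higher. The antimicrobial Defb14, a defensin of keratinocytes, was not called (1.20 ± 0.83, adjusted p = 0.37). Without the 4 arrays in turn, 6, 3, 8 and 4 members were called, and the median without db/db replicate 2 was 0.63.

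**Figure D2:**
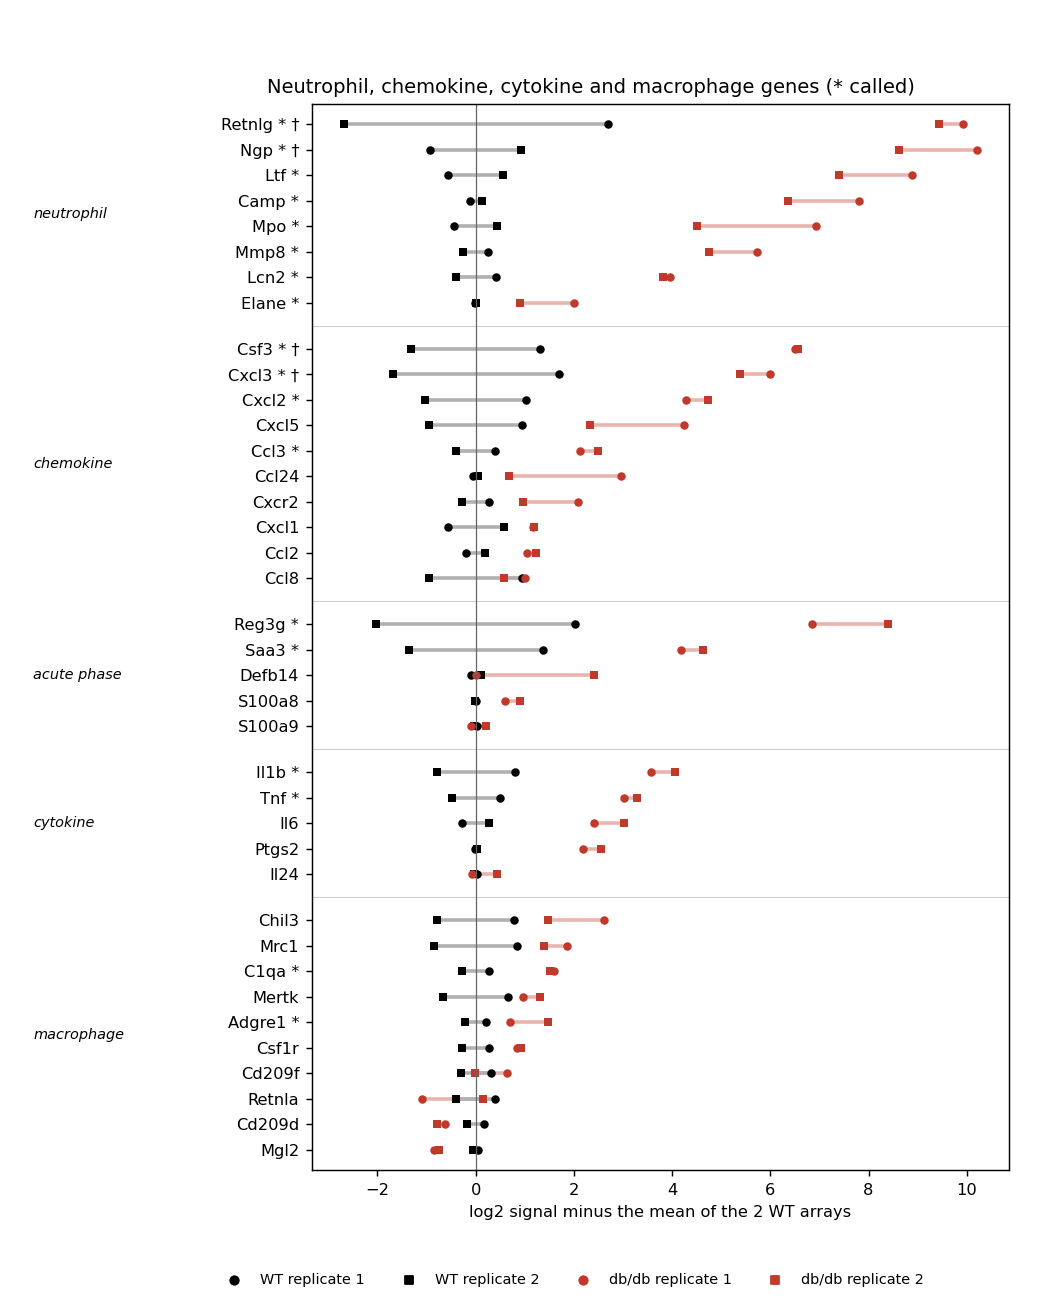
Scaled log2 signal of each array minus the mean of the 2 WT arrays for key genes of the inflammatory lists (black, WT; red, db/db; circle, replicate 1; square, replicate 2). An asterisk marks a called gene and a dagger a gene that was not well above background on both arrays of 1 of the groups; the red points of Ltf and Camp lie at least 6 log2 units above zero, and those of S100a9 lie within the WT points or close to them.

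Of 20 macrophage and monocyte genes, 8 were called higher and 1 lower, with a median of 0.99. Of the 4 markers listed for this cell type, 2 were called. C1qa, a chain of complement C1q made by tissue macrophages, read 4.18 and 4.09 in db/db and 2.85 and 2.30 in WT wounds (1.56 ± 0.27, adjusted p = 0.0074), Adgre1, an adhesion receptor that marks mature macrophages, was 1.09 ± 0.29 higher (adjusted p = 0.038), and Csf1r, the receptor that maintains the lineage, read 5.56 and 5.65 against 5.0 and 4.46 with a fold under 2 through its brightest probe (0.88 ± 0.24, adjusted p = 0.040). Of the other Csf1r probes, 1 was called higher (1.22, adjusted p = 0.011) and 1 differed by 0.12. Mertk, which serves the uptake of dying cells, was not called (1.13 ± 0.36, adjusted p = 0.066). The call of Adgre1 through its brightest probe was lost without db/db replicate 2, WT replicate 1 or WT replicate 2 and with a replicate block (adjusted p = 0.068). A further Adgre1 probe was called higher, at 1.44 (adjusted p = 0.0092).

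Other members of the list are given as examples. Cd14, the co-receptor for endotoxin, read 4.40 and 4.30 against 1.54 and 0.48 (3.34 ± 0.42, adjusted p = 0.0015). Spp1, osteopontin, read 4.68 and 4.26 against 1.68 and 0.82 (3.22 ± 0.50, adjusted p = 0.0043). Cd163, the scavenger receptor for haemoglobin complexes, read −0.95 and −1.72 against −4.69 and −7.32, the latter not well above background (4.67 ± 0.71, adjusted p = 0.0038). With normexp background correction the Cd163 difference was smaller, at 2.68. Ccr2, the receptor that brings monocytes into tissue, was the member called lower (−1.27 ± 0.34, adjusted p = 0.036), though not without db/db replicate 2 (0.18), WT replicate 1 (0.17) or WT replicate 2 (0.055). In the fits without 1 array, 7, 6, 10 and 6 members were called higher, and the list median without WT replicate 2 was 0.63.

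The genes of alternatively activated macrophages were called in both directions: 4 of 18 were called higher, 2 lower, and the median was 0.27. Chil3, which encodes Ym1, read 3.26 and 2.11 against 1.43 and −0.14 (2.04 ± 0.63, adjusted p = 0.059), Mrc1, the mannose receptor, differed by 1.62 ± 0.52 (adjusted p = 0.066) and Retnla by −0.47 ± 0.64 (adjusted p = 0.67). None of these 3 was called. F13a1, coagulation factor XIII A of macrophages and platelets, was 2.47 ± 0.43 higher (adjusted p = 0.0068), Clec10a, a galactose-binding lectin, 2.39 ± 0.38 (adjusted p = 0.0046) and Il4ra, the interleukin-4 receptor, 2.45 ± 0.37 (adjusted p = 0.0039), and these calls stood whichever array was left out. Cd209a, a lectin of dermal dendritic cells, was lower (−3.20 ± 0.66, adjusted p = 0.014), though not without db/db replicate 2 (0.082) or WT replicate 1 (0.061). With each array left out in turn, 3, 4, 6 and 4 members were called higher and 1, 0, 0 and 2 lower, and the median was 0.10 without WT replicate 2 and 0.75 without WT replicate 1.

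Among the CC chemokines, 4 of 16 were called higher and 3 lower. Ccl3 and Ccl4, which attract monocytes, were 2.30 ± 0.49 (adjusted p = 0.015) and 2.36 ± 0.41 (adjusted p = 0.0074) higher, the former not without db/db replicate 2 (0.076) or WT replicate 2 (0.084). Ccl2, the main ligand of Ccr2, read 3.40 and 3.57 against 2.15 and 2.54 and was not called (1.14 ± 0.38, adjusted p = 0.075). The 3 members called lower were Ccl27a, Ccl28 and Ccl5. Ccl27a, made by keratinocytes, was lower (−3.59 ± 0.67, adjusted p = 0.0097, and 0.057 without db/db replicate 1), and Ccl28, not well above background in the db/db wounds, was at least 6.39-fold lower (adjusted p = 0.0037). Ccl5, which attracts T cells, was called lower, at −2.64 (adjusted p = 0.035), and kept the call in 1 of the 4 fits that left out an array. The call of Ccl5 was also lost with a replicate block (0.052) and with slide as a fixed block (0.059). With normexp background correction the log2 difference of Ccl28 was −1.31, against −3.34 here. When single arrays were left out, 2, 1, 6 and 1 members were called higher and 1, 2, 2 and 3 lower.

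Leukotriene synthesis was represented by 2 called genes of the eicosanoid list, in which 4 of 21 members were higher and 1 lower. Alox5, the 5-lipoxygenase, read 0.12 and −0.42 in the db/db wounds and −1.77 and −2.0 in the WT wounds (1.73 ± 0.31, adjusted p = 0.0077), and Alox5ap, its activating protein, was 1.53 ± 0.17 higher (adjusted p = 0.00078). Ptgds, a prostaglandin D synthase, was lower (−2.91 ± 0.63, adjusted p = 0.017), though not without db/db replicate 1 (0.078), db/db replicate 2 (0.058) or WT replicate 2 (0.082). Leaving out the arrays in turn, 3, 2, 5 and 2 members were called higher.

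Markers of other cells that a wound can hold were read as well, and their part in the inflammatory differences was not tested. Of 13 mast cell genes 4 were called higher. Mcpt2, a mast cell protease, read 2.66 and 3.56 in the db/db wounds and −7.07 and −4.46 in the WT wounds, where only replicate 2 was well above background (8.87 ± 0.68, adjusted p = 0.00014). Mcpt4, the brightest of the list, was not called (1.01 ± 0.65, adjusted p = 0.33), nor were Cpa3 (1.52 ± 0.82, adjusted p = 0.25) and Kit, whose difference was 0.00. Cma1 was 1.99 ± 0.56 higher (adjusted p = 0.044), with the call lost in each fit that left out an array (adjusted p from 0.052 to 0.20) and with a replicate block (0.063). The summed linear signal of the list was 37.3 and 56.7 in db/db and 18.5 and 9.27 in WT wounds, and without the 4 arrays in turn 2, 3, 4 and 2 members were called. Mast cell proteases are close copies of each other, and how far a probe reads its neighbours was not tested.

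Of 9 red cell and platelet genes 5 were called higher, with a median of 2.86, and the summed signal was 216 and 122 in db/db against 28.5 and 21.2 in WT wounds. The brightest probe of this list was that of Hba-a1 on the db/db arrays and WT replicate 1 and that of Pf4, a platelet chemokine, on WT replicate 2. Hba-a1, a chain of haemoglobin, read 6.80 and 6.03 against 3.76 and 2.94 (3.07 ± 0.93, adjusted p = 0.056), short of a call, and Alas2, the haem enzyme of red cell precursors, read 0.89 and 0.03 against −2.05 and −2.75 (2.86 ± 0.91, adjusted p = 0.065). Both db/db arrays were above both WT arrays for these genes. In the same 4 fits, 1, 2, 2 and 0 members were called.

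Muscle genes varied widely between the arrays of a group. Myh7, the heavy chain of slow myosin, read 4.48 and 2.26 in db/db and −4.25 and −1.39 in WT wounds (6.19 ± 3.16, adjusted p = 0.22). None of 12 slow muscle genes and none of 20 fast muscle genes was called by limma, and 0 of either passed the unadjusted thresholds. The median of the slow muscle list was 2.70 between the replicate 1 arrays and −0.07 between the replicate 2 arrays. The summed signal of the fast muscle list was 893 and 456 against 845 and 1041, lowest on db/db replicate 2.

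Proteases and their inhibitors of the matrix were called higher for 6 of 23 members and lower for 0. Timp1, an inhibitor of metalloproteinases, was 1.29 ± 0.35 higher (adjusted p = 0.039), and it lost the call with a replicate block (0.076) and without any 1 array (0.099 to 0.15). The stromelysins and collagenase of keratinocytes and fibroblasts, Mmp3, Mmp10 and Mmp13, read higher without being called (1.93 ± 0.80, 5.11 ± 1.59 and 2.97 ± 1.05, adjusted p = 0.14, 0.061 and 0.090). For Mmp10 the arrays ran from 0.75 to 3.53 in db/db and from −4.68 to −1.26 in WT wounds. Without the 4 arrays in turn, 2, 3, 5 and 3 members were called.

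Collagen and elastic matrix genes gave 0 higher and 2 lower calls among 36 members. Their median of −0.22 turned sign between arrays, at 0.46 between the replicate 1 arrays and −0.86 between the replicate 2 arrays, and was −0.50, 0.15, −0.47 and 0.09 without each array in turn, with 1, 1, 1 and 0 members called lower. Col1a2 differed by −0.53 ± 0.25 (adjusted p = 0.19), Postn, periostin, by −0.85 ± 0.46 (adjusted p = 0.25) and Fn1, fibronectin, by −0.47 ± 0.39 (adjusted p = 0.46). Acta2 and Tagln, the contractile genes of myofibroblasts, differed by −0.23 ± 0.39 (adjusted p = 0.74) and −0.08 ± 0.38 (adjusted p = 0.92). In the list of TGF-beta and myofibroblast genes 4 of 23 were called higher, among them Tgfb1 itself (1.07 ± 0.20, adjusted p = 0.0091, and 0.053 without WT replicate 2) and Inhba, the activin A subunit (2.55 ± 0.73, adjusted p = 0.047), the latter not without db/db replicate 1 (0.21), db/db replicate 2 (0.083) or WT replicate 1 (0.24) and not with a replicate block (0.081). In the fits without 1 array, 2, 5, 2 and 2 members of that list were called.

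Vessel and proliferation genes gave few calls. Of 28 genes of blood and lymph vessels 1 was called higher, Vegfc, a growth factor for lymph vessels (1.54 ± 0.34, adjusted p = 0.017, and 0.098 and 0.086 without replicate 1 of db/db or WT), and 0 lower. Pecam1, which encodes CD31, differed by −0.26 ± 0.24 (adjusted p = 0.50) and Vegfa by −0.23 ± 0.34 (adjusted p = 0.71). None of 36 cell cycle genes was called by limma, with Mki67 at −0.25 ± 0.29 (adjusted p = 0.60) and a list median of −0.03, and none of 37 genes of the mitochondrial respiratory chain, whose median was −0.02. In both lists 0 members passed the unadjusted thresholds. The cell cycle median turned sign between arrays, at 0.22 between the replicate 1 arrays and −0.31 between the replicate 2 arrays. It was −0.31 without WT replicate 1 and 0.23 without WT replicate 2. Of 29 genes of glycolysis and hypoxia 3 were higher, among them Slc16a3, the lactate exporter (1.14 ± 0.27, adjusted p = 0.024), whose adjusted p was 0.053 with a replicate block and 0.077 to 0.12 without any 1 array other than WT replicate 2; with each array left out, 0, 1, 1 and 2 members were called.

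Interferon-induced genes were lower. Of 29 tested members 21 were called lower and 1 higher, with a median of −1.94, and the 7 others had differences from −1.37 to −0.23. With each array left out in turn, 10, 9, 9 and 16 were called lower. The median was −2.17 between the replicate 1 arrays and −1.66 between the replicate 2 arrays.

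Ifit1, which binds foreign RNA lacking a cap methyl group, read −5.23 and −5.72 in the db/db wounds and −1.81 and −1.84 in the WT wounds (−3.65 ± 0.49, adjusted p = 0.0023). Isg15, a ubiquitin-like modifier, read 0.18 and 0.28 against 2.75 and 2.84 (−2.56 ± 0.39, adjusted p = 0.0039), and a further Isg15 probe gave −2.58. Ifit3 read −1.90 and −1.96 against 0.61 and 0.53 (−2.50 ± 0.49, adjusted p = 0.012), with an adjusted p of 0.054 without db/db replicate 2. Replicates of both groups lay close together for these 3 genes.

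Cxcl10, which attracts T cells through Cxcr3, read −1.39 and −1.6 against 1.86 and 1.34 (−3.10 ± 0.74, adjusted p = 0.024). Irf7, the transcription factor that amplifies the type I response, was called lower, at −2.03 ± 0.47 (adjusted p = 0.022). Both calls were lost whichever array was left out, with adjusted p from 0.066 to 0.096 for Cxcl10 and from 0.053 to 0.10 for Irf7. Gbp2, a GTPase induced by interferon gamma, read −1.85 and −1.76 against 2.58 and 2.02 (−4.10 ± 0.37, adjusted p = 0.00029), and Usp18, which removes Isg15 from its targets, was lower as well (−2.43 ± 0.36, adjusted p = 0.0033).

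GAAANNGAAA are the letters of the interferon-stimulated response element, found in many genes that interferon induces. The promoters of 4 key genes of the list, chosen because they held the letters, are shown with them in capitals. They come from RefSeq (GRCm38.p6) and run from 5′ to 3′ on the strand of the gene, and where the letters lie on the opposite strand their complement is what is in capitals.
Ifit1 (chr19:34640755-34640843, plus strand): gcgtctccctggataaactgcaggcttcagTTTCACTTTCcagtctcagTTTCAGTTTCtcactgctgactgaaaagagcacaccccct
Ifit3 (chr19:34583343-34583446, plus strand): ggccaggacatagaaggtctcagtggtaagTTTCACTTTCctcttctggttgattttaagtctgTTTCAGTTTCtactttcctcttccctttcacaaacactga
Isg15 (chr4:156200845-156200926, minus strand): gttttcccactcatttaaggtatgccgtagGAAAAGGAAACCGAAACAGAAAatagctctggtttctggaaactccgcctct
Cxcl10 (chr5:92349063-92349132, minus strand): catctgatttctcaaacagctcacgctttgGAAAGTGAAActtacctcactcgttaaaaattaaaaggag
The letters stood in 1131 of 32851 promoters (3.44%) and in 3.77% of the 13379 tested genes with a promoter in the table. Of 24 list members with a promoter, 16 held them: 13 of 19 that were called lower, 0 of 1 called higher and 3 of 4 not called. The interferon list was drawn up as genes known to respond to interferon, so the share is a property of the list and says nothing of the factor in these wounds. The letters of both elements overlapped in 3 promoters of the whole table.

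The member called higher was Xaf1, an interferon-induced gene linked to cell death. Its brighter probe read −0.02 and 0.35 in the db/db wounds and −5.19 and −5.56 in the WT wounds (5.54 ± 0.30, adjusted p = 2.3e-05). Its other probe went the other way by −2.73 (adjusted p = 0.0053), with the value of db/db replicate 2 missing. Probes of 1 gene that oppose each other were rare: of 4359 genes with several probes tested, 11 had calls in both directions and 437 a called and an uncalled probe.

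**Figure D3:**
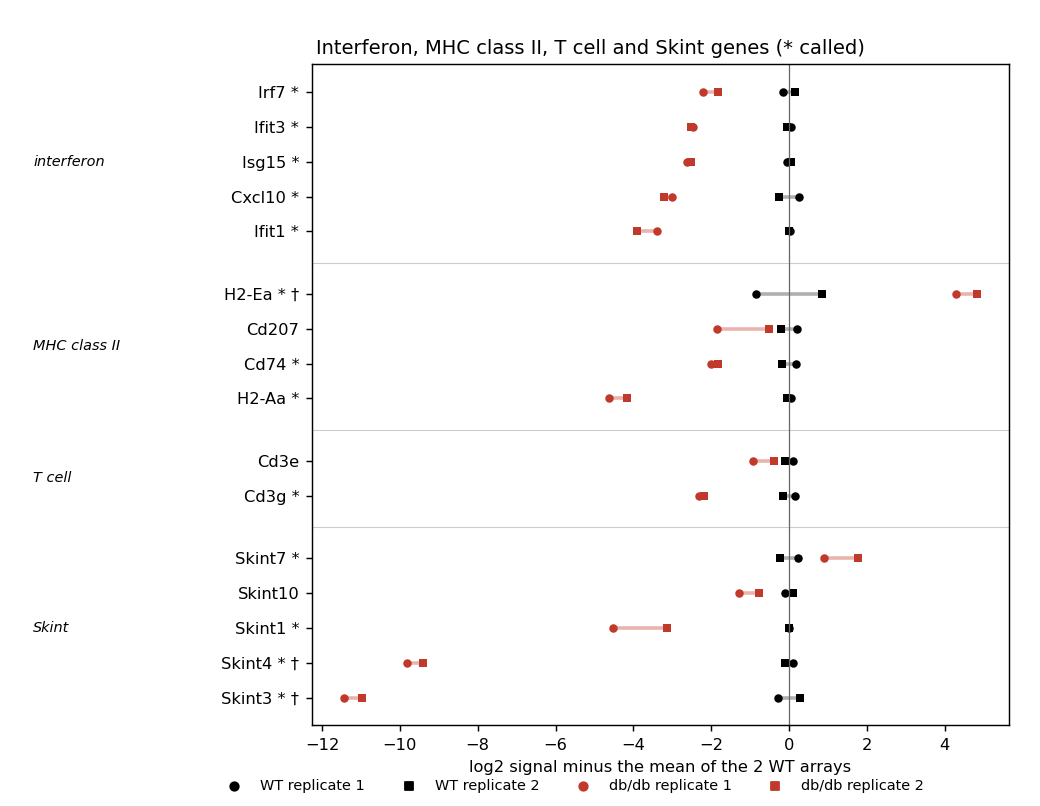
Scaled log2 signal of each array minus the mean of the 2 WT arrays for key genes of the interferon, MHC class II, T cell and Skint lists (black, WT; red, db/db; circle, replicate 1; square, replicate 2). An asterisk marks a called gene and a dagger a gene not well above background on both arrays of 1 of the groups; H2-Ea and Skint7 are the 2 genes whose red points lie to the right of the WT points.

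Genes of antigen presentation by MHC class II, with markers of Langerhans cells, were called lower for 8 of 16 members and higher for 1. H2-Aa, the alpha chain of the I-A molecule, read −3.12 and −2.64 in the db/db wounds and 1.56 and 1.47 in the WT wounds (−4.39 ± 0.40, adjusted p = 0.00030). H2-Ab1, its beta chain, read 2.88 and 3.13 against 5.43 and 5.05 (−2.23 ± 0.41, adjusted p = 0.0091), and Ciita, the master regulator of the class II genes, was called lower, at −3.04 ± 0.60 (adjusted p = 0.012, and 0.061 without db/db replicate 2 or 0.056 without WT replicate 1). Cd74, the invariant chain, was called lower, at −1.92 ± 0.41 (adjusted p = 0.016), which did not pass without db/db replicate 1 (0.073), db/db replicate 2 (0.056) or WT replicate 1 (0.068). Cd207, langerin, the defining marker of Langerhans cells, was not called (−1.19 ± 0.98, adjusted p = 0.45). When single arrays were left out, 4, 5, 5 and 8 members were called lower.

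The member called higher was H2-Ea, the alpha chain of the I-E molecule, a gene that C57BL/6 mice are known to carry in an inactive form. It read −3.40 and −2.86 in the db/db wounds and was not well above background in the WT wounds, with values of −8.54 and −6.85, which made it at least 11-fold higher (adjusted p = 0.0022). With normexp background correction the difference was 1.28 and it was not called (adjusted p = 0.075). The class II alleles of both strains differ in sequence, and how well each probe reads each allele was not tested.

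T cell genes had a median of −1.06, with 3 of 21 called lower and 0 higher. Cd3g, a chain of the T cell receptor complex, was called lower, at −2.25 ± 0.56 (adjusted p = 0.028), but it lost the call whichever array was left out (adjusted p from 0.079 to 0.11), and with any 1 array left out 0 members of the list were called by limma. Cd3e differed by −0.67 ± 0.32 (adjusted p = 0.20) and Cd4 by 0.03. Among genes of granzymes and natural killer cells 2 of 14 were higher and 1 lower. Gzme, a granzyme of the mouse cluster, read 1.1 and −0.51 against −3.84 and −2.70 (3.57 ± 0.53, adjusted p = 0.0035).

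Families of nearly identical genes, several of them known to vary between mouse strains, held many of the largest values. The Skint genes, keratinocyte receptors of which Skint1 selects the gamma delta T cells of the epidermis, were called lower for 7 of 10 members and higher for 1. Skint1 read −6.15 and −4.78 in the db/db wounds and −1.63 on both WT arrays (−3.84 ± 0.66, adjusted p = 0.0066), and Skint4 was not well above background in the db/db wounds and at least 248-fold lower (adjusted p = 2.3e-05). Skint7 gave opposite values with its probes: the brighter was higher by 1.33 ± 0.33 (adjusted p = 0.028), though not without db/db replicate 2 (0.15) or WT replicate 2 (0.14), and the dimmer differed by −3.89 (adjusted p = 0.075). Leaving out the arrays in turn, 5, 5, 6 and 5 members were called lower.

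The major urinary proteins, carriers of scent in urine, were called lower for 11 of 11 tested genes in every fit that left out 1 array. Mup20 read −3.99 and −5.67 in the db/db wounds and 4.13 and 2.93 in the WT wounds (−8.36 ± 0.73, adjusted p = 0.00026), and Mup3 was called lower, at −7.66 ± 0.62 (adjusted p = 0.00017). WT replicate 1 lay above WT replicate 2 for both, and the summed signal of the list was 340 and 150 in WT against 1.35 and 0.572 in db/db wounds. Because these genes differ by few bases, the 11 values cannot be taken as 11 separate genes.

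Of the inflammasome genes, 4 of 14 were called higher and 1 lower, among them sensors of the Naip family. Naip1, which senses bacterial secretion needles, was 2.59 ± 0.37 higher (adjusted p = 0.0030, and 0.094 with normexp background correction), with only 1 of its WT readings well above background, and Naip6 4.80 ± 1.16 higher (adjusted p = 0.026), with WT arrays at −8.39 and −3.32 of which only replicate 2 was well above background. The call of Naip6 was lost without db/db replicate 1 (0.081) or db/db replicate 2 (0.099). Nlrp1b, which is known to vary between inbred strains, was not well above background in the db/db wounds and was at least 19.6-fold lower (adjusted p = 0.0054). The shared effectors Casp1 and Pycard differed by 0.17 (adjusted p = 0.65) and −0.04 (adjusted p = 0.95), and Naip5 by 0.01 (adjusted p = 0.98). In the same 4 fits, 2, 2, 5 and 4 members were called higher and 1 in each lower.

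Some single genes separated the groups as sharply with no list behind them. Syt10, a synaptotagmin of vesicle release, read 4.31 and 3.14 in the db/db wounds and −6.24 and −5.65 in the WT wounds (9.67 ± 1.04, adjusted p = 0.00075), the highest difference measured on all 4 arrays. Its call stood whichever array was left out, and it was called higher on the arrays labelled day 14 as well (7.93). Slc5a7, the choline transporter of cholinergic nerves, was not well above background in the WT wounds and at least 22.9-fold higher in the db/db wounds (adjusted p = 0.0059, and 0.059 with normexp background correction). A further Slc5a7 probe, also not well above background in the WT wounds, was at least 6.93-fold higher. Prm1, a protamine of sperm chromatin, was at least 28.9-fold higher (adjusted p = 0.0047) and Ceacam10 at least 22.5-fold higher (adjusted p = 0.00090). With normexp background correction the log2 difference of Ceacam10 was smaller than this bound, at 2.44. For Thumpd1, a factor of tRNA acetylation, 1 probe was at least 333-fold lower (adjusted p = 7.4e-09) and the other differed by −0.21 ± 0.13 (adjusted p = 0.31), so that the gene's own level is not settled by these probes. In all, 176 probes called higher were well above background on no WT array, and 219 called lower on no db/db array.

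Of 21 regulators of the hair cycle 11 were called lower and 0 higher, with a median of −1.36, and without the 4 arrays in turn 6, 6, 8 and 4 were. Hoxc13, which switches on the hair keratins, read −5.41 and −4.85 in the db/db wounds and −1.67 and −1.08 in the WT wounds (−3.76 ± 0.36, adjusted p = 0.00042). Lhx2, a stem cell factor of the follicle, read −2.53 and −3.20 against 1.1 and 1.16 (−3.99 ± 0.47, adjusted p = 0.0011). Groups did not overlap for either gene, and both calls stood whichever array was left out.

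Members of that list chosen as examples include genes of Hedgehog signalling, which drives the growth of the follicle. Gli1, a target and effector of that pathway, read −2.33 and −2.83 against 0.02 and 0.35 (−2.77 ± 0.41, adjusted p = 0.0037), and Ptch1, its receptor, was called lower, at −2.40 ± 0.28 (adjusted p = 0.0011). Shh, the ligand, read −6.74 and −9.24 against −6.14 and −4.05 (−2.90 ± 0.80, adjusted p = 0.040), with db/db replicate 2 not well above background, and it lost the call without db/db replicate 2 (0.19) or WT replicate 2 (0.21), with a replicate block (0.079) and with quantile normalization (0.095). Lef1, the partner of beta-catenin, was called lower, at −2.75 ± 0.62 (adjusted p = 0.019), not without db/db replicate 2 (0.099) or WT replicate 2 (0.11). Lgr5, a stem cell marker, was called lower, at −1.09 ± 0.29 (adjusted p = 0.037), and its call was lost whichever array was left out (0.071 to 0.16). The ligands Wnt10b and Wnt5a differed by −1.35 (adjusted p = 0.053) and 1.37 (adjusted p = 0.11).

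The hair keratins and genes of the inner root sheath, products of the growing hair shaft, were called lower for 6 of 27 tested members and higher for 1, while 12 of the 41 genes of the list were too dim in both groups to test. Krt35 read −6.80 and −6.02 in the db/db wounds and −1.63 and 2.04 in the WT wounds (−6.61 ± 1.13, adjusted p = 0.0065). Krt71 read −6.04 and −7.21 against −1.20 and 4.0 (−8.02 ± 1.61, adjusted p = 0.013), with only 1 of the db/db arrays well above background, and it lost the call without db/db replicate 2 (0.065) or WT replicate 2 (0.054). The WT arrays themselves differed by 3.67 for Krt35 and 5.20 for Krt71, replicate 2 being the higher, and the summed signal of the list was 4.65 and 41.4 on the WT arrays and 2.39 and 3.60 on the db/db arrays. Krt27 and Tchh, trichohyalin, differed by −3.82 ± 1.13 (adjusted p = 0.052) and −1.96 ± 1.19 (adjusted p = 0.31) and were not called. Without the 4 arrays in turn, 3, 3, 9 and 3 members were called lower, and the list median of −1.67 was −0.55, −1.81, −1.61 and −0.72.

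Pigment genes were lower in the same wounds. Of 12 melanocyte genes 7 were called lower and 0 higher, with a median of −1.96. Dct, an enzyme of melanin synthesis, read −1.62 and −1.01 in the db/db wounds and 2.24 and 2.81 in the WT wounds (−3.84 ± 0.92, adjusted p = 0.024), and a further Dct probe gave −3.86. Tyrp1 was called lower, at −3.67 ± 0.93 (adjusted p = 0.031), and so was Pmel, which builds the fibrils of melanosomes, at −3.55 ± 0.81 (adjusted p = 0.020). The db/db arrays lay more than 3 log2 units below both WT arrays for Dct and Pmel, but the calls of Dct and Tyrp1 were lost whichever array was left out (adjusted p from 0.057 to 0.11 and from 0.056 to 0.14), and that of Pmel without any 1 array other than WT replicate 1 (0.067 to 0.088).

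Not every gene of the melanocyte followed. Tyr, tyrosinase, differed by −0.77 ± 0.36 (adjusted p = 0.19) and Mitf, the factor that defines the lineage and is also used by other cells, by 0.38 (adjusted p = 0.13). The summed signal of the list was 6.29 and 5.46 in db/db and 10.9 and 14.1 in WT wounds. In the fits without 1 array, 3, 1, 5 and 2 members were called.

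Lipid genes of the sebaceous gland were called lower for 5 of 22 members and higher for 0. Scd1, the stearoyl-CoA desaturase, read 2.59 and 3.56 against 4.63 and 4.36 (−1.42 ± 0.39, adjusted p = 0.040), which did not pass without db/db replicate 1 (0.22), WT replicate 1 (0.15) or WT replicate 2 (0.093) and with a replicate block (0.058). Elovl5, which lengthens polyunsaturated fatty acids, read 1.47 and 1.20 against 3.06 and 2.65 (−1.52 ± 0.19, adjusted p = 0.0014) and was called in every fit that left out 1 array. With each array left out in turn, 1, 6, 1 and 1 members were called.

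**Figure D4:**
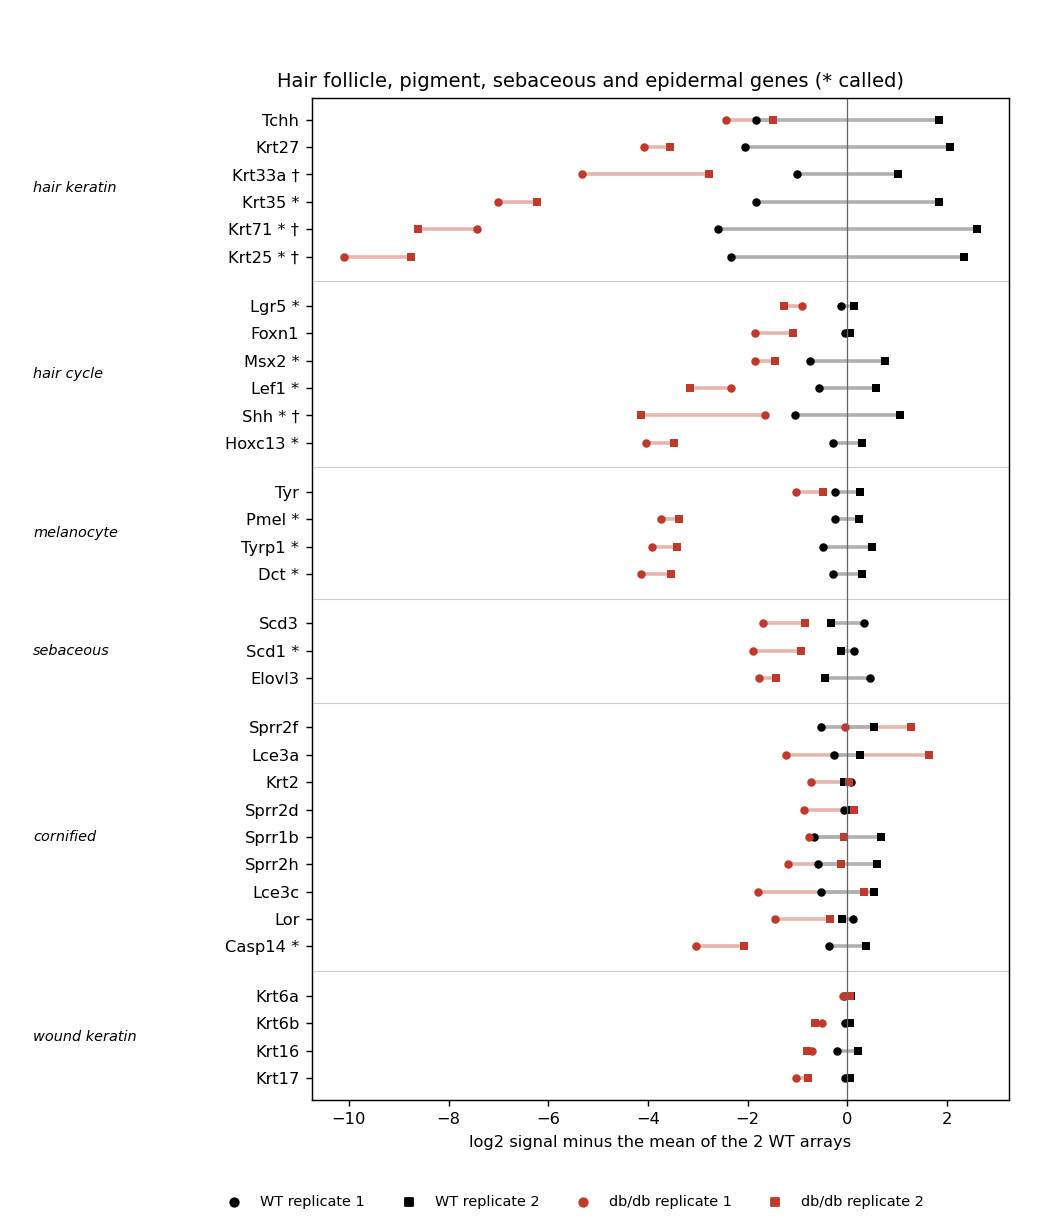
Scaled log2 signal of each array minus the mean of the 2 WT arrays for key genes of the hair follicle, pigment, sebaceous and epidermal lists (black, WT; red, db/db; circle, replicate 1; square, replicate 2). An asterisk marks a called gene and a dagger a gene not well above background on both arrays of 1 of the groups; the wide black bars of the hair keratins show the spread between the WT replicates.

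The barrier genes of the granular layer all had differences at or below zero, 36 of 36 with a median of −0.90, but 3 were called lower. Casp14, a protease of filaggrin processing, read 0.97 and 1.94 in the db/db wounds and 3.64 and 4.39 in the WT wounds (−2.56 ± 0.53, adjusted p = 0.015), and it lost the call without db/db replicate 1 (0.085) or WT replicate 2 (0.080). Lor, loricrin, read 6.08 and 7.19 against 7.64 and 7.43 and was not called (−0.90 ± 0.80, adjusted p = 0.49). The list median was −1.58 between the replicate 1 arrays and −0.30 between the replicate 2 arrays, and without the 4 arrays in turn 0, 4, 3 and 0 members were called, with medians of −0.31 and −1.59 without db/db replicate 1 and db/db replicate 2. Of the Sprr and Lce3 genes, cornified envelope genes that wounds induce, 1 of 19 was called, and Krt6a, Krt6b, Krt16 and Krt17, the keratins of activated keratinocytes, differed by −0.02, −0.58, −0.76 and −0.90 with none called. The fifth keratin of that list, Krt75, which is also made in the hair follicle, was called lower, at −2.41 (adjusted p = 0.027), and kept the call in 1 of the 4 fits that left out an array.

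Leptin and its signalling were read in the same wounds. Lep, leptin itself, read −1.18 and 0.33 in the db/db wounds and −3.54 and −3.30 in the WT wounds (3.0 ± 0.87, adjusted p = 0.050, just under the threshold). The call was lost whichever array was left out (adjusted p from 0.064 to 0.21) and with a replicate block (0.077). Socs3, which cytokine signalling through STAT3 induces and which restrains it, was 1.48 ± 0.25 higher (adjusted p = 0.0060). Among markers of fat cells, Adipoq differed by −0.72 ± 0.81 (adjusted p = 0.60), Plin1 by 0.11 ± 0.76 (adjusted p = 0.94) and Fabp4 by 0.50 ± 0.33 (adjusted p = 0.35), and none of these 3 was called. Of 17 genes of lipid storage in fat cells 2 were called higher, Cd36, a fatty acid carrier (1.46 ± 0.24, adjusted p = 0.0054), and Lpl, lipoprotein lipase (1.24 ± 0.32, adjusted p = 0.033), and 1 lower, Adrb3. The call of Cd36 stood whichever array was left out and that of Lpl in none of those fits. Cfd, adipsin, which obese mice are known to make little of, read 2.02 and 2.10 against 6.51 and 6.44 (−4.42 ± 0.92, adjusted p = 0.014, and 0.056 to 0.061 without any 1 array other than WT replicate 1), and Adrb3, the beta-3 adrenoceptor of fat cells, read −4.52 and −4.09 against −0.08 and 0.05 (−4.29 ± 0.45, adjusted p = 0.00065).

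Esr1, estrogen receptor alpha, read −3.53 and −3.22 in the db/db wounds and −1.13 and −1.61 in the WT wounds through its brighter probe (−2.01 ± 0.36, adjusted p = 0.0081). Its dimmer probe differed by −0.82 and was not called (adjusted p = 0.062). Among clock genes 3 of 18 were called higher and 1 lower. Per2, a repressor of the clock, was 1.43 ± 0.30 higher (adjusted p = 0.015, and 0.050 to 0.082 without db/db replicate 1 or either WT array, and with normexp background correction its difference was 0.75, under the fold threshold), whereas Arntl, its activator, and Dbp and Nr1d1, its outputs, were not called (−0.61, 0.37 and −0.57). The time of day at which wounds were taken is not given in the sources used here, and without the 4 arrays in turn 1, 3, 1 and 1 clock genes were called higher.

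The same comparison on the arrays labelled day 14 gives these values their setting. Those arrays come from other slides and were scanned on another day, so labelled day, slide and scan day cannot be told apart. Both untreated db/db arrays labelled day 14 lay on 1 slide and both WT arrays on another, whereas each slide labelled day 7 held both groups, so that a slide effect there can be separated from the groups only through the treated db/db arrays on the same slides. Of the probes also tested here, 1.61% were called higher and 11.3% lower there, and of the genes 1.81% and 6.45%. Of 1182 probes called higher here and tested there, 313 (26.5%) were called higher there too and 12 lower, and of 1402 called lower, 730 (52.1%) were called lower and 1 higher.

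The inflammatory lists had smaller medians on the arrays labelled day 14: 1.41 against 3.63 for neutrophil granule genes, 1.30 against 3.25 for their chemokines, −0.39 against 1.45 for acute phase genes and 0.28 against 1.14 for the cytokines. Reg3g, Csf3 and Lcn2 differed there by 0.89, 0.46 and 0.49 and were not called, whereas Ltf and Mmp8 were still called (3.45 and 3.01). The macrophage median was 0.93 against 0.99, and the latter was 0.63 without WT replicate 2. Of the lower lists, the medians were −1.19 against −1.94 for interferon-induced genes and −0.92 against −1.35 for MHC class II. For the Skint genes they were −3.02 against −3.49 (−2.97 on the arrays labelled day 7 without db/db replicate 1). For the hair cycle they were −0.97 against −1.36 (−0.96 on the arrays labelled day 7 without WT replicate 2). They were −0.72 against −1.67 for the hair keratins (−0.55 on the arrays labelled day 7 without db/db replicate 1 and −0.72 without WT replicate 2). For the melanocyte genes they were −1.18 against −1.96, for the sebaceous genes −0.39 against −0.85 and for the barrier genes 0.08 against −0.90. Some lists went the other way, such as the keratins of activated keratinocytes (−1.14 against −0.76) and the granzyme and natural killer cell genes (−0.75 against −0.40). The db/db minus WT difference on the arrays labelled day 7, less that on day 14, was tested for each probe in the same limma model. A positive value of this contrast can also come from a probe lower in db/db wounds only on the arrays labelled day 14. An adjusted p of 0.05 was passed by 184 of 29134 probes (0.632%), 179 of them with a positive value. Without db/db replicate 1, db/db replicate 2, WT replicate 1 and WT replicate 2 this count was 725, 10, 505 and 15, and with a replicate block it was 10. With slide as a fixed block 0 probes passed. Among the list members, Il10 and Elovl5 passed in the model without a block, and none of the neutrophil genes did.

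**Figure D5:**
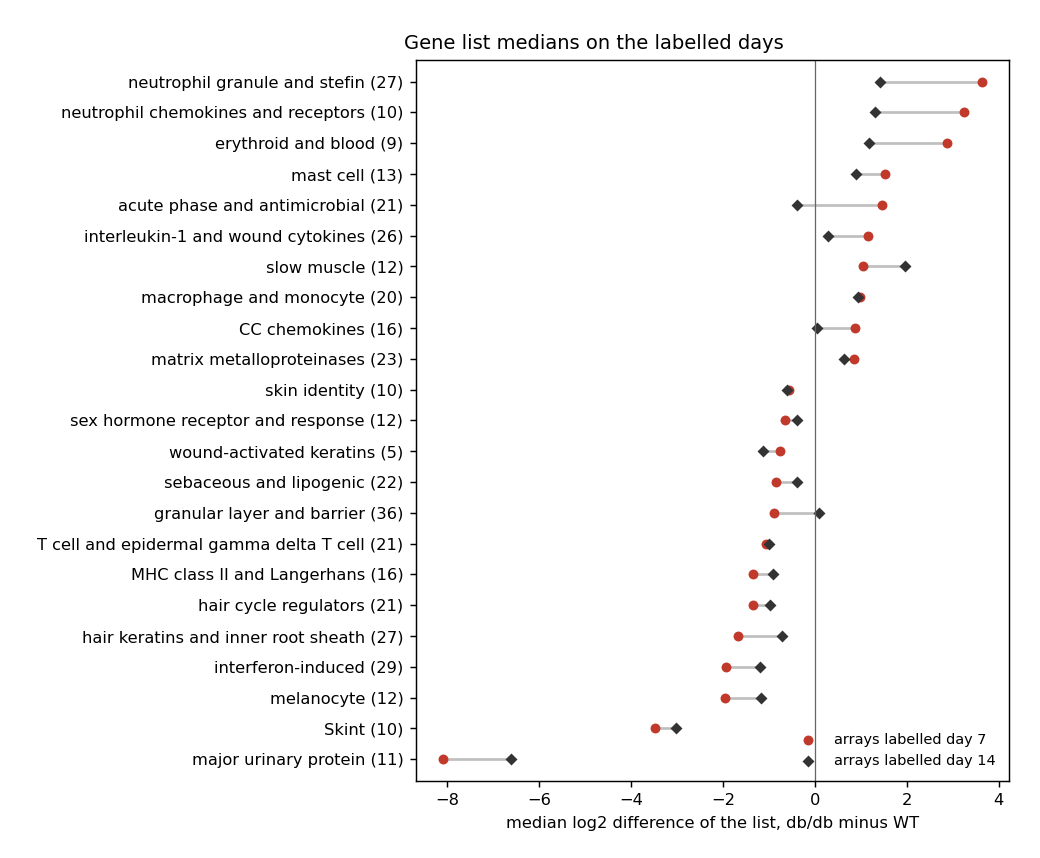
Median log2 difference between db/db and WT wounds for the lists whose median was at least 0.5 from zero on the arrays labelled day 7 (red circles), beside the median of the same list on the arrays labelled day 14 (dark diamonds). Tested members are counted in parentheses. The red circles lie further from zero than the diamonds for the neutrophil, interferon and hair lists and nearer to zero for the slow muscle genes. For the hair lists and the slow muscle genes this order did not hold in every fit that left out 1 array labelled day 7.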

How the data were processed

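RNA from wounds was read on 16 one-colour Agilent mouse arrays, 2 for each of 8 groups, and 4 of them are compared here. Each scanner file, as deposited, gives an intensity per spot. The authors obtained it in Feature Extraction 11.0.1.1, whose default protocol removes background and then spatial trends, and did not scale arrays to each other. The ratio per probe in the series matrix, also deposited, is the authors' intensity over the 75th percentile of its array, and it was used as an alternative.

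Outlier spots were excluded and the remaining spots of a probe averaged. The log2 75th percentile of each array over noncontrol probes was subtracted. limma 3.58.1 in R 4.3.3 was fitted to all 39429 probes with 1 coefficient for each of 8 groups (8 residual degrees of freedom), so that all groups share 1 estimate of the spread. Where 1 group was not well above background, folds are bounds against the lowest signal well above background on each array. They hold for the signals as scaled here, and normexp background correction gave differences below the bound for some of these probes. A RefSeq table and 6 accessions from the study's tables named 69.6% of the probes, and a gene in a list was read through the probe that was brightest over the 16 arrays.

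The comparison, the 42 gene lists and the key genes were chosen with earlier results of these data known. The text names key genes, the 10 genes in each direction with the largest difference measured on all 4 arrays and the 5 with the largest bound, and further list members as examples chosen after their values were seen. Not every gene that the rule takes in is named, and some are not reported here. No test was run on a list, and the fit was tested on simulated data. Alternatives were normexp (offset 50), quantile normalization, other filters, a floor for dim signals, the deposited ratios, the 4 arrays alone, slide and replicate blocks (statmod 1.5.0), and each array left out. Replicate 1 of every group labelled day 7 lay on 1 slide and replicate 2 on another. Deviations of equal replicate numbers correlated at −0.22 between WT and db/db and at −0.15 to 0.32 between the other groups labelled day 7, so they were not taken as pairs.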

Additional observations from a re-analysis of the deposited data

Results flagged for a closer look

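Il10 and Elovl5 stood out because their difference between db/db and WT wounds was itself different on the arrays labelled day 7 and day 14. Il10 was 2.97 higher in db/db wounds on the arrays labelled day 7 and 0.86 higher on those labelled day 14, a change of 2.11 ± 0.28 on the log2 scale (limma's adjusted p of the contrast 0.020). Elovl5 differed by −1.52 and −0.09, a change of −1.44 ± 0.26 (adjusted p = 0.049). Neither change passed with slide as a fixed block (adjusted p = 0.18 for Il10 and 0.19 for Elovl5), with a replicate block (0.073 and 0.12) or with normexp background correction (0.21 and 0.13), nor without db/db replicate 2 (0.081 and 0.16) or WT replicate 2 (0.078 and 0.10). With outlier spots kept, that of Il10 was 1.26 (adjusted p = 0.097). Elovl5 also missed the threshold with quantile normalization (0.057), no filter on dim probes (0.058), the filter on all 4 arrays (0.062), crossed replicate numbers (0.093) and without WT replicate 1 (0.064). Labelled day, slide and scan day cannot be told apart in either value. Each slide labelled day 14 held only 1 of the 2 groups.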

How the results depend on the processing

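The count of 2699 adjusted calls stayed within 1.5 times under every alternative apart from 2: with the 4 arrays alone it was 10, and without db/db replicate 2 it was 1781. Leaving out 1 array gave 1781 to 2696 calls. The counts at the thresholds of the study's methods stayed within 1.5 times throughout. The share of calls that were higher, 46.2%, was 57.5% with quantile normalization, 20% of the 10 calls of the 4 arrays alone, and 31.8% to 60.1% with 1 array left out; the median of all probes moved from −0.05 to −0.19 with normexp and to 0.04 with quantile normalization. The count of probes that differed between the labelled days, 184, was 14 with normexp, 101 with quantile normalization, 85 with the filter on all 4 arrays, 10 with the replicate block, 112 with crossed replicate numbers (tried after seeing the data), 0 with slide as a fixed block, where limma gave 3106 probes at an unadjusted p under 0.05, and 10 to 725 with 1 array left out. The causes were not tested. Of 78 called genes named by rule, 68 kept the call with the replicate block, 74 with normexp, 76 with quantile normalization, 4 with the 4 arrays alone, and 51 to 62 with 1 array left out, and none changed direction. Of 42 list medians, 37 to 42 kept their sign under each alternative. Signal over background limits the dim probes: 176 higher and 219 lower calls rest on a group with no array well above background, so their size is only a bound.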
